A study of Mus musculus with 16 samples.

Results

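The cells described here are mitotic cells of the mouse small-intestinal crypt, defined as the 250 cells with the highest share of mitotic transcripts among the 2597 cells of the series. They were chosen among the 1961 cells with at least 900 unique molecular identifiers (UMIs, each a captured transcript molecule). The M score of a cell is the number of UMIs of 11 mitotic genes (Top2a, Mki67, Cdk1, Ccnb1, Ccnb2, Cdc20, Ube2c, Birc5, Cenpa, Kif23 and Pbk) over all its UMIs. The S score is the same share for 12 DNA replication genes (Mcm2, Mcm3, Mcm4, Mcm5, Mcm6, Mcm7, Pcna, Tyms, Rrm2, Gins2, Prim1 and Dut). The 250 highest M scores were taken among cells whose M score was at least their S score, with ties kept in file order. The cells were thus selected on the measured level of the score genes, which is given as a description with no test.

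Crypt isolates of outbred mice at postnatal day 16 were dissociated to single cells to compare the stem cell lineage of wild-type (WT) and ROBO-Crainbow (ROBO) small intestine, with 8 deposited samples of each genotype. ROBO mice carry a single-copy Crainbow transgene from which Cre recombinase, driven in the intestinal epithelium by the Villin promoter, switches on human R-spondin 3 or a fusion of it with PTPRK, each beside its own fluorescent protein. The counts used here do not tell which cell expressed which form. No library is named in the cell identifiers, which carry only genotype and a serial number, so each genotype was treated as 1 pooled sample with no test between genotypes. The columns of each matrix are nonetheless ordered in runs, within which the UMI total per cell falls from column to column, with 5 runs in WT and 8 in ROBO. The labels tie no run to a sample, mouse or cartridge, so runs were not used as replicates, but they differed widely and values are given by run where they bear on a result. The median depth of a run lay between 1034 and 2710 UMIs, the lowest total between 463 and 1554, and the mature enterocyte level of its non-mitotic cells between 138.9 and 738.6 UMIs per 10000. The intervals below are 95% intervals for counting error only. Variation among mice, libraries or runs is not part of them. The matrices held 1348 WT and 1249 ROBO cells with 2682127 and 2428435 UMIs, a median of 1492 and 1610 UMIs per cell.

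Crypt cells divide fast in the transit-amplifying zone above the stem cells, and their daughters move up and mature into absorptive and secretory cells. As a cell enters mitosis, cyclin B with CDK1 and the Aurora and Polo kinases drive chromosome condensation, spindle assembly and attachment at the kinetochores. The anaphase-promoting complex with CDC20 then has securin and cyclin B degraded, and the cell divides. Most of these genes are transcribed in G2 and mitosis together, so transcript counts do not separate a G2 cell from a mitotic cell.

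The 250 mitotic cells comprised 128 of 993 WT cells and 122 of 968 ROBO cells. The share was 12.9% in WT (95% interval 10.9 to 15.1%) and 12.6% in ROBO (10.6 to 14.9%), and ROBO minus WT came to -0.287 percentage points, with a Newcombe interval of -3.24 to 2.68. Between runs the share varied far more, from 5.38% (10 of 186 cells) to 23.0% (31 of 135) in WT and from 6.59% (11 of 167) to 24.6% (47 of 191) in ROBO, and the 2 genotypes overlapped over nearly this whole range. WT runs 1 and 5 and ROBO runs 6 and 7 held 18.3% to 24.6% mitotic cells and the other 9 runs 10% or fewer. Leaving out 1 run at a time moved ROBO minus WT between -3.24 (without ROBO run 6) and 2.50 points (without WT run 5), so neither a difference nor a bound on one can be read from the counting interval. Mitotic cells held 909 to 10438 UMIs, with a median of 2352 in WT and 2070 in ROBO, against a median of 1969 in the 1711 other cells. They carried between 3 and 76 UMIs of the M genes, with a median of 11, and 22 of them carried under 5. The highest M score was 108.6 UMIs per 10000, in a WT cell with 14 M gene UMIs of 1289. The last cell taken had 31.60 per 10000 (8 of 2532 UMIs) and the first left out 31.59 (17 of 5382 UMIs), so the limit falls within a continuous range of scores. A further 13 cells had M scores above this limit but a higher S score and were left out by the rule.

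**Figure D1:**
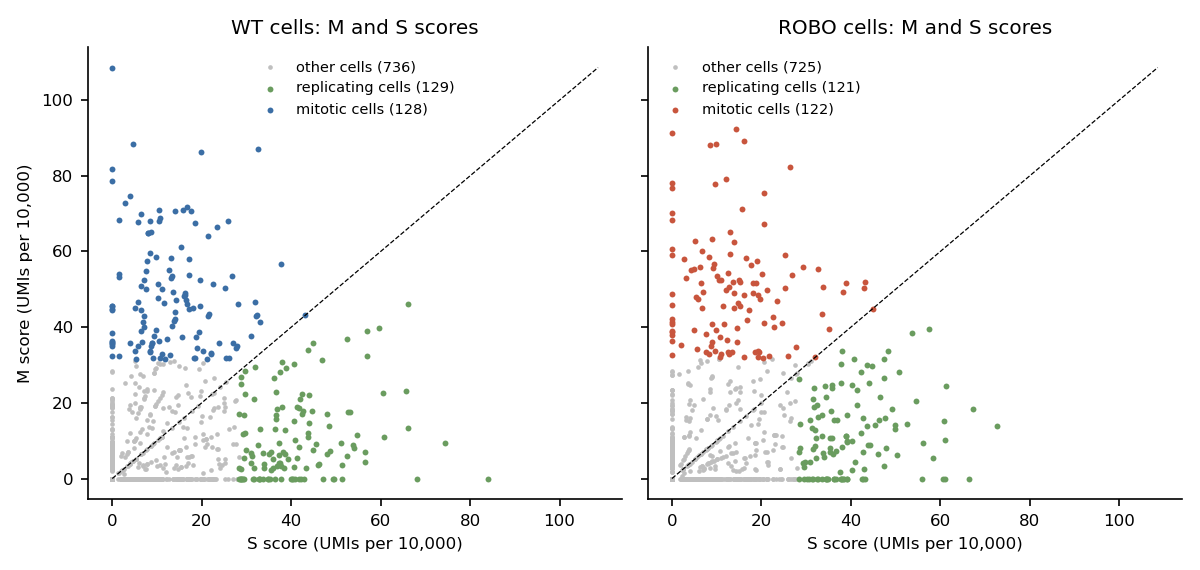
M score against S score, both in UMIs per 10000, for each cell with at least 900 UMIs, in WT (left) and ROBO (right); the dashed line marks equal scores. The 128 WT and 122 ROBO mitotic cells lie on or above the line from 31.60 to 108.6, and the 250 replicating cells, those with the highest S scores among cells whose S score is above their M score, lie below it.

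Single mitotic cells expressed several M genes at the same time. A median of 6 of the 11 genes had a UMI in a mitotic cell, and 243 of the 250 cells had at least 3 of them. With every cell thinned to 900 UMIs, 69.2% of the mitotic cells and 3.21% of the other cells still had at least 3. This difference was set by the choice of cells. Of the genes named, Ube2c, the E2 enzyme of the anaphase-promoting complex, had a UMI in 77.2% of mitotic cells, and Top2a, the topoisomerase that untangles sister chromatids, in 76.0%. Cenpa, the histone H3 variant of centromeres, was seen in 65.6%, and Birc5 (survivin), a subunit of the chromosomal passenger complex, in 64.8%. Cdk1, the mitotic kinase, was seen in 56.0%, its cyclins Ccnb2 and Ccnb1 in 53.2% and 42.0%, and Cdc20, the activator of the anaphase-promoting complex, in 51.6%. The proliferation antigen Mki67, the mitotic kinase Pbk and the central spindle kinesin Kif23 were seen in 42.4%, 41.6% and 37.2%. At these depths a mitotic cell without a UMI of a gene is not shown to lack its transcript.

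The M genes had the same summed level in both genotypes, while single genes differed. Together they made up 49.6 UMIs per 10000 in WT (1807 UMIs) and in ROBO (1511 UMIs), in cells that all had to pass the same limit. Top2a stood at 7.66 per 10000 in WT and 8.64 in ROBO mitotic cells, against 1.09 in other cells. Ube2c stood at 9.36 and 8.94, against 0.994 in other cells. Within the fixed sum, Cdc20 had 4.39 per 10000 in WT and 3.19 in ROBO (log2 ratio ROBO over WT -0.46, interval -0.84 to -0.09). Pbk had 2.17 and 3.32 (0.61, interval 0.18 to 1.06), which is past 1.5-fold. These levels were used to choose the cells and are a description.

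**Figure D2:**
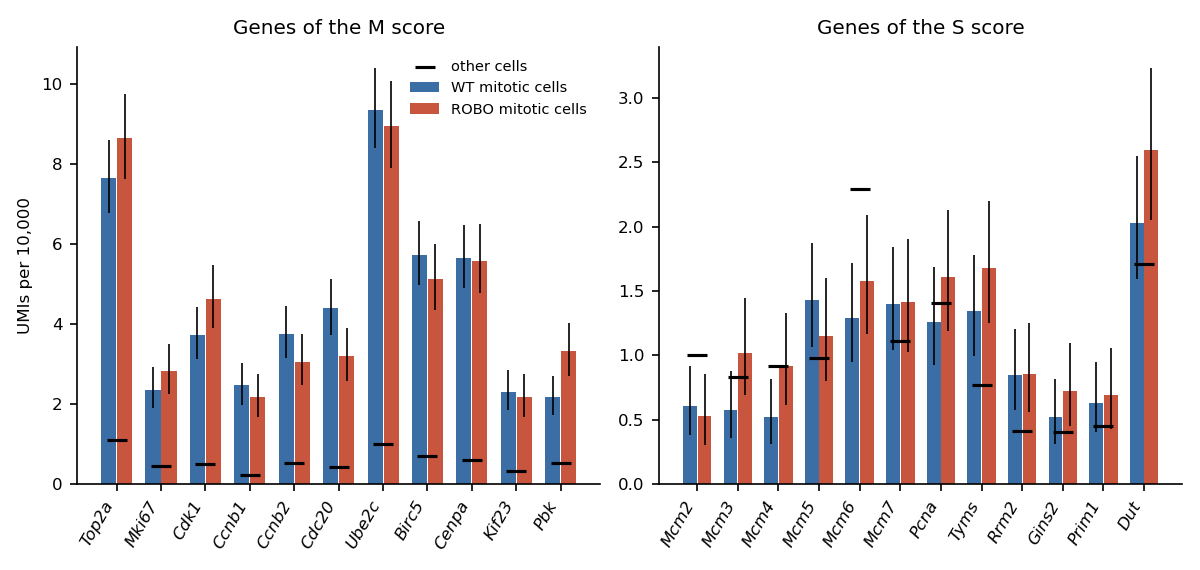
Level of each M gene (left) and S gene (right) in UMIs per 10000 over the pooled WT (blue) and ROBO (red) mitotic cells, with 95% Poisson intervals (exact, counting error only); the black dash is the level in the 1711 other cells. Each M gene stands above its dash by construction, since its level chose the cells.

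The S genes, which the rule used only as an upper limit, stood at 13.5 UMIs per 10000 in mitotic cells and 12.3 in other cells, a description since they entered the rule. The replicating cells, the 250 cells with the highest S scores, had 40.9. The genes of the list differed among themselves. The MCM helicase genes Mcm2 and Mcm6 were lower in mitotic cells than in other cells, with 0.568 against 1.00 and 1.42 against 2.29 per 10000. The nucleotide synthesis genes Rrm2 (ribonucleotide reductase) and Tyms (thymidylate synthase) were higher, with 0.852 against 0.416 and 1.495 against 0.769. Without thinning, no S gene was captured in 12.4% of mitotic cells (median depth 2129 UMIs), against 38.9% of other cells (median 1969).

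The promoters of the M genes share sequence letters that the choice of cells did not use. The letters TTTGAA are the core of the cell cycle genes homology region, which DREAM and MuvB complexes bind in promoters of G2 and M genes, and CCAAT is the box bound by NF-Y. Both strands were searched in RefSeq promoters (GRCm38.p6, 250 bases before to 50 after the start), where 10 of the 11 M genes matched the table by symbol and Pbk did not. TTTGAA was present in 8 of the 10 (80%), against 18.1% of all 27025 promoters and 12.1% of the 5677 promoters of genes with at least 100 UMIs in these cells. CCAAT was present in 9 of the 10 (90%), against 37.9% and 39.0%, and both motifs together in 80%, against 7.12% and 5.23%. CCAAT was not particular to the M genes, with 80% of matched S gene promoters and 55.6% of other replication gene promoters. TTTGAA was in 10% and 11.1% of these. In 110 promoters of the mitotic gene lists below, without the chromatin list, TTTGAA was in 46.4%, CCAAT in 60.9% and both in 34.5%, lower than in the M genes. No TTTGAA match overlapped a CCAAT match in these genes. Ccnb1 held CCAAT but no TTTGAA, and Birc5 held neither in this window. The letters TTCCCGC or TTTGGCG, which E2F factors bind, were in 0 of the 10 M gene promoters, in 5 of 10 matched S gene promoters (50%), in 22 of 36 other replication gene promoters (61.1%) and in 6.07% of all promoters. A match is a description of the letters and not a measured binding site.

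The stretches below show how close these letters lie to the start of transcription, each 110 bases long and upstream of the start of a gene on the minus strand of the build GRCm38.p6, with TTTGAA and CCAAT on either strand (TTCAAA and ATTGG when read on the other) in capitals. They run from chr11:99024190-99024299 for Top2a, chr4:118437353-118437462 for Cdc20, chr10:69352939-69353048 for Cdk1 and chr9:70421555-70421664 for Ccnb2.
Top2a: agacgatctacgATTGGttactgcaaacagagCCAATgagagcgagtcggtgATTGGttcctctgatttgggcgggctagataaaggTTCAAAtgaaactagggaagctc
Cdc20: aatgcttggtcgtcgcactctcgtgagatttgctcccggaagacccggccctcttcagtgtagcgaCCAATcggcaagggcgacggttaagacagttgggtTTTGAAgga
Cdk1: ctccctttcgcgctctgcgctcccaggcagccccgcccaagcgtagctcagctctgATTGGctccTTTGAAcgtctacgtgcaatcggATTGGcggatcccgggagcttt
Ccnb2: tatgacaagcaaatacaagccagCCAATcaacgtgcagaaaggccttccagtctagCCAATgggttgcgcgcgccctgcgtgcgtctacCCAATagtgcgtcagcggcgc

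In Top2a, TTCAAA lies 23 to 18 bases before the start with CCAAT boxes at 58, 78 and 98 bases before it. The start used for Top2a is base 99024189, while its annotated RefSeq gene reaches 99024199. The end of its stretch thus lies within that gene, and distances from the outer end would be shorter. In Cdc20, TTTGAA lies 18 to 13 bases before the start and a CCAAT box 53 bases before it. Cdk1 has TTTGAA from 71 bases before the start between a pair of inverted CCAAT boxes at 80 and 48. The stretches leave out further matches nearer the start, a TTTGAA 15 to 10 bases before it in Cdk1 and a CCAAT 8 to 4 bases before it in Cdc20. Farther upstream, Cdk1 also has an inverted CCAAT at 208, and Top2a has a TTTGAA at 179 and inverted CCAAT boxes at 149, 189 and 227 bases before the start. Ccnb2 has CCAAT boxes starting 87, 54 and 21 bases before the start and its TTTGAA matches lie outside the stretch shown, 167 bases before the start and 5 bases after it.

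Beyond the score genes, the rest of the mitotic machinery was higher in the same cells. Of 7109 genes outside both scores with at least 100 UMIs, 15% were more than 1.5-fold higher in mitotic than in other cells and 14.4% more than 1.5-fold lower, with a median log2 ratio of 0.11. All 22 measured genes of the spindle, kinesin and cytokinesis list were past 1.5-fold higher, with a median log2 ratio of 2.47, as were 10 of 10 in the list of Aurora, Polo and passenger kinases (2.38) and 12 of 12 of the centromere and kinetochore list (1.65). Of the list of cyclins, CDC25 phosphatases and mitotic transcription factors, 10 of 12 were past this fold, of the checkpoint and anaphase-promoting complex list 12 of 16, of the condensin and cohesin list 9 of 16, and of the chromatin and nuclear envelope list 21 of 24. None of these 7 lists had a gene past 1.5-fold lower, and of all 112 measured genes in them 96 were past 1.5-fold higher (85.7%). In each genotype taken alone the log2 ratios of the 7 list sums lay between 0.99 and 2.15 (WT) and between 1.08 and 2.40 (ROBO). The list sums were higher in mitotic cells within each of the 13 runs. With the other cells weighted to the runs of the mitotic cells, the spindle list had a log2 ratio of 2.02, the kinases 2.00 and the kinetochore list 1.73, and 11.9% of all genes were past 1.5-fold higher and 13.6% lower. These genes were measured in the cells that the M score ranked, and they are transcribed with the score genes, so no test is attached to these counts.

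The spindle and cytokinesis genes carried 40.3 UMIs per 10000 in mitotic cells and 9.28 in other cells (log2 ratio 2.12, interval 2.05 to 2.19). Nusap1, a microtubule bundling protein of the spindle, had the highest ratio of the genes outside the scores, with 129 UMIs in the 250 mitotic cells and 72 in the 1711 others (log2 ratio 3.42, interval 2.99 to 3.86). Hmmr, which organises spindle poles, followed with 71 against 50 UMIs (3.08), and Kif22, the chromosome arm kinesin, had 83 against 63 (2.98). Prc1, the bundler of the central spindle, had 129 against 105 UMIs (2.88). Of the cytokinesis genes, the scaffold Anln had 91 against 81 (2.75), the abscission gene Cep55 60 against 47 (2.93), and Racgap1, the partner of Kif23 in centralspindlin, 199 against 218 (2.45). Arl6ip1, an endoplasmic reticulum membrane protein placed in this list, had 361 against 725 UMIs (1.57) and a UMI in 59.2% of mitotic cells. The lowest ratios of the list were those of Sapcd2 (0.65) and Numa1 (0.66), which are regulators of spindle orientation, with 342 and 411 UMIs in other cells.

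Among the kinases, Plk1, the Polo kinase of mitotic entry, had 136 UMIs in mitotic and 117 in other cells (log2 ratio 2.80, interval 2.43 to 3.16). The Aurora kinases Aurkb and Aurka had 141 against 128 and 99 against 90 UMIs (both 2.72), and the centrosome kinase Nek2 had 82 against 84 (2.54). The passenger complex subunits Cdca8 (borealin) and Incenp had 218 against 324 (2.01) and 129 against 167 (2.21). Cdca3, an adaptor for the degradation of WEE1, had 304 against 428 (2.08) and was found in 57.2% of mitotic cells. At the centromere, the kinetochore motor Cenpe and its partner Cenpf had log2 ratios of 2.92 and 2.76, and the NDC80 complex subunits Spc24 and Spc25 had 1.88 and 2.58. Cenpw (1.63) and Mis18a (1.53), of the constitutive centromere and the CENP-A loading complex, lay lower within this list.

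Of the regulators of CDK1, the activating phosphatase Cdc25b had 82 against 60 UMIs (log2 ratio 3.03, interval 2.53 to 3.53), while Cdc25a, which acts from G1 on, had 77 against 388 (0.25, interval -0.13 to 0.60). The S and G2 cyclin Ccna2 had 279 against 305 (2.45), and the CDK subunits Cks1b and Cks2 had ratios of 2.00 and 1.91. The inhibitory kinases Wee1 and Pkmyt1 stood at 1.00 and 0.60. The transcription factor Foxm1, an activator of G2 and M genes, was captured with 39 and 62 UMIs (1.91, interval 1.29 to 2.51). In the checkpoint list, Bub1 (2.93), Bub1b (2.41), Bub3 (1.92) and Mad2l1 (1.87), which hold back anaphase, and securin Pttg1 (2.11) stood above the core subunits of the anaphase-promoting complex. The latter ranged widely. Cdc27 (1.16), Cdc23 (1.01), Anapc1 (0.85), Cdc16 (0.78) and Anapc5 (0.63) stood higher than Anapc11 (0.45) and Anapc2 (-0.13, interval -0.55 to 0.27).

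**Figure D3:**
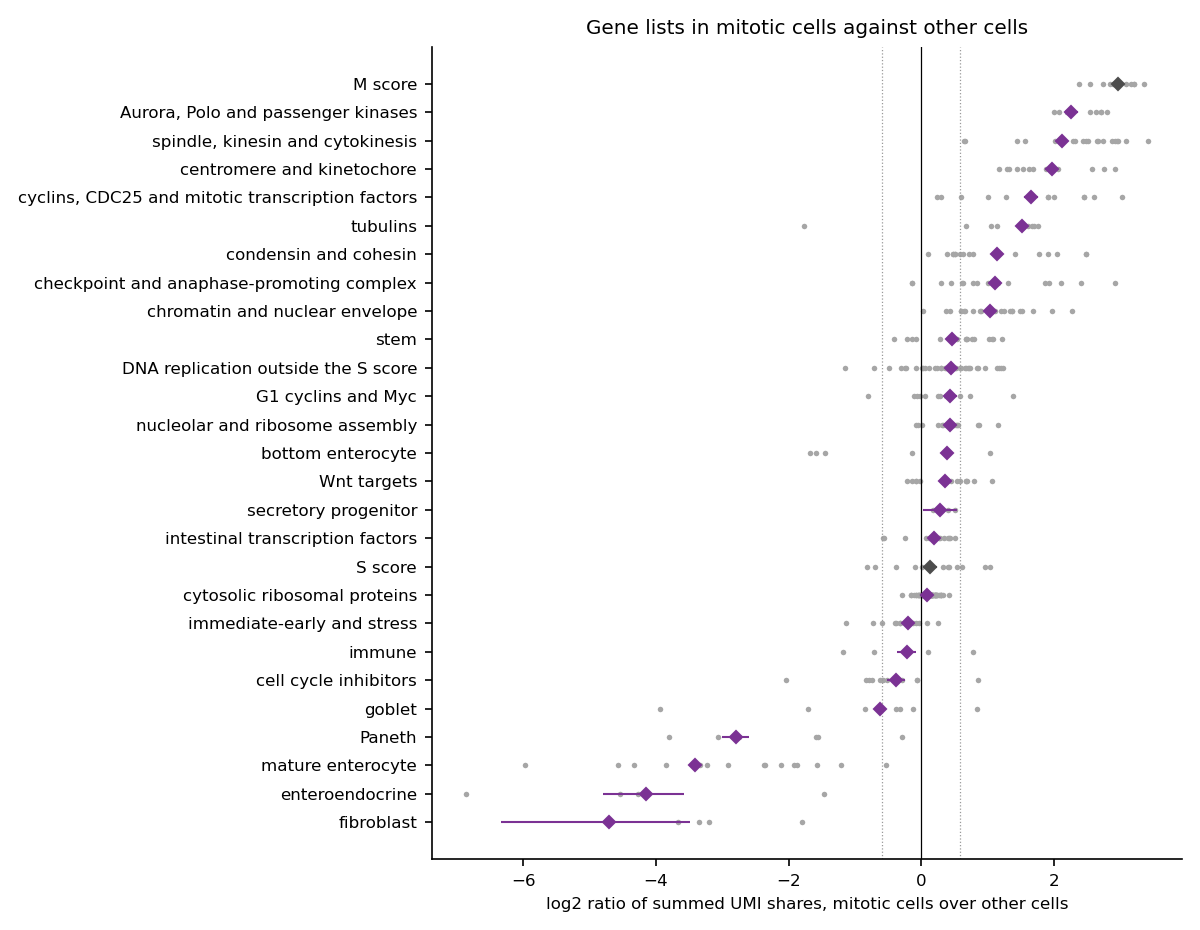
Log2 ratio of summed UMI shares in the 250 mitotic cells over the 1711 other cells for each gene list (diamonds, with conditional exact 95% intervals for counting error; the lists of the scores in dark grey) and for each gene of the list with at least 100 UMIs (grey points, with a count of 0 set to 3); dotted lines mark 1.5-fold. Mitotic lists lie between 1.03 and 2.27 and the mature enterocyte, enteroendocrine and fibroblast lists below -3.

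Tubulin and chromatin genes followed the mitotic genes at lower ratios. Of the tubulins, Tubb5 had 12.8 UMIs per 10000 in mitotic cells against 3.93 in others (log2 ratio 1.70), and Tuba1b, Tubb4b and Tuba1c had ratios of 1.76, 1.61 and 1.67. Tubb2a went the other way, with 10 UMIs against 204 (-1.77, interval -2.85 to -0.86). The chromatin proteins Hmgb2 and H2afx had ratios of 2.28 and 1.98, the nuclear envelope genes Lbr, Lmnb1 and Tmpo 1.51, 1.69 and 1.37, and Lmna, a lamin of differentiated cells, 0.02 (interval -0.32 to 0.35). Within the condensin and cohesin list, some condensin genes, Smc2 (2.48), Ncapd2 (2.05), Ncaph (1.91) and Smc4 (1.78), stood above the cohesin genes Stag2 (0.79), Smc1a (0.58) and Smc3 (0.48). Ncapd3 (0.73), Ncaph2 (0.51) and Ncapg2 (0.38), also of condensin, lay no higher than Stag2. The kleisin Rad21, of cohesin, had 1.41.

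Setting the mitotic cells against the 250 replicating cells separated genes of DNA replication from a part of the genes of mitosis. In this comparison 6.47% of 2892 genes outside the scores were past 1.5-fold higher in mitotic cells and 3.67% past 1.5-fold lower. Of the replication list outside the S score, 19 of 27 measured genes were past 1.5-fold lower in mitotic cells and 0 higher, and the list stood at 31.3 against 59.0 UMIs per 10000 (log2 ratio -0.91, interval -0.99 to -0.84). Lig1, the DNA ligase of replication, had a ratio of -1.97, the origin licensing factor Cdt1 -1.74 and the chromatin remodeler Hells -2.13. The genes Rrm1 and Tk1, which make deoxynucleotides, were close to equal, with -0.25 (interval -0.55 to 0.06) and -0.22 (-0.57 to 0.12), as was the tubulin-binding gene Stmn1 (-0.01, interval -0.44 to 0.43). On the other side, 38 of 76 measured genes of the 7 mitotic lists were past 1.5-fold higher in mitotic cells (50%) and 0 lower. The count was 7 of 7 for the kinases and 11 of 13 for the spindle list. It was 4 of 12 for condensin and cohesin and 4 of 24 for the chromatin list. Nusap1 (2.50), Plk1 (2.45), Cenpf (2.36), Arl6ip1 (2.31) and Bub1b (1.87) were higher in mitotic cells, as were Tuba1c (1.95) and Tubb4b (1.54). Tubb5 was at 0.41 (interval 0.26 to 0.56). The S and M genes chose these groups, so genes transcribed with them were bound to differ.

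Genes of the G1 phase and of ribosome assembly were less tied to the mitotic cells. Ccnd2 and Ccnd1, the cyclins D that answer growth signals, had log2 ratios over other cells of 0.73 and 0.59, Cdk4 0.28 and Myc -0.01 (interval -0.39 to 0.35). Of the cell cycle inhibitors, 5 of 11 measured were past 1.5-fold lower. Cdkn1a (p21) had 74 UMIs in mitotic and 790 in other cells (-0.84, interval -1.20 to -0.49), Btg2, an antiproliferative gene, 89 and 888 (-0.74), and Cdkn1c (p57) 11 and 269 (-2.03). Cdkn1b (p27) went the other way, with 52 and 172 UMIs (0.85, interval 0.38 to 1.31). The nucleolar genes Npm1 and Ncl, of ribosome assembly, had 0.34 and 0.54, and 0 of 76 measured cytosolic ribosomal protein genes passed 1.5-fold in either direction. Of the immediate-early and stress genes, Fos (-0.08) and Jun (-0.16) were near the level of other cells. In this list 3 of 14 measured genes were past 1.5-fold lower and 0 higher, beside 14.4% of all genes past 1.5-fold lower. The 3 were Klf6 (-1.13), Atf3 (-0.72) and Zfp36 (-0.59).

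Stem cell and Wnt target genes were present in the mitotic cells above the level of other cells but not above that of replicating cells. The stem list stood at 28.4 UMIs per 10000 in mitotic cells, 20.6 in other cells (log2 ratio 0.46, interval 0.39 to 0.53) and 32.1 in replicating cells, and 9 of 18 measured genes were past 1.5-fold higher than in other cells and 0 lower. Slc12a2 had the most UMIs of the list, 558 of its 1898 in mitotic cells, with a log2 ratio over other cells of 0.50. Lgr5, the R-spondin receptor that marks crypt base stem cells, had 63 UMIs in 40 mitotic cells. Thinned to 900 UMIs, Lgr5 had a UMI in 8.00% of mitotic cells (4.96 to 12.1%) and 4.85% of other cells (3.88 to 5.98%), and Ascl2, a stem cell transcription factor, in 8.00% and 4.68%. The Wnt feedback gene Axin2 was captured in 25.2% (19.9 to 31.1%) against 19.4% (17.5 to 21.3%). Mitotic cells had the higher stem level in each of the 13 runs, with a log2 ratio of 0.65 when the other cells were weighted by run. Smoc2 and Gkn3, other markers of the crypt base, had log2 ratios of 1.09 and 1.22, while Igfbp4 had -0.41 and Sox9 -0.14, which became 0.19 and 0.05 with run weights. Transcription factors of intestinal identity were close to other cells, with Hnf4a at 0.41, Cdx1 at 0.43 and 0 of 13 genes past 1.5-fold. These counts do not tell dividing stem cells from transit-amplifying cells, and the cells are called mitotic only.

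Absorptive differentiation genes were lower. Of the 16 mature enterocyte genes, 15 were past 1.5-fold lower in mitotic cells, and the list stood at 35.9 against 380.3 UMIs per 10000 (log2 ratio -3.40, interval -3.46 to -3.35). It was lower in each of the 13 runs, with log2 ratios of -5.29 to -2.38, and stood at -3.10 with the other cells weighted to the runs of the mitotic cells. Apoa4 and Apoa1, apolipoproteins of chylomicrons, had ratios of -4.33 and -4.57, lactase Lct -3.85, the fatty acid binding genes Fabp1 and Fabp2 -3.42 and -2.36, and the intestinal alkaline phosphatase Alpi -2.11. Among the lowest ratios over all genes outside the scores, where the 17 measured genes at 0 in mitotic cells were set to 3 counts, was that of Gip, the hormone of K cells, with 2 UMIs in mitotic and 1398 in other cells (log2 ratio -6.87, interval -9.92 to -5.02). Gip is an enteroendocrine gene, and only 40 of the 1711 other cells had 3 or more UMIs of that list. Its ratio thus rests on few cells, which the interval does not cover. The brush border genes Ace (2 and 1124 UMIs, -6.56, interval -9.60 to -4.70) and Cubn (2 and 749 UMIs, -5.97, interval -9.02 to -4.11) were also among the 10 lowest. Mature enterocyte transcripts were still captured in most mitotic cells, with a UMI in 86.0% of them at 900 UMIs (81.1 to 90.1%), against 91.5% of other cells and 60% (36.1 to 80.9%) of 20 cells outside the mitotic group that were rich in immune markers and should lack these genes. The summed level of 35.9 per 10000 compares with 20.6 (16.8 to 25.03) in those 20 cells, whose median depth was 2106 UMIs, a level that free RNA in the droplets can give. Replicating cells had 25.7 per 10000, lower than mitotic cells (log2 ratio 0.48, interval 0.39 to 0.58). The highest mitotic cells had 167 and 140 UMIs of the list, and the 3 highest held 15.2% of its 2401 UMIs.

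Dmbt1, a secreted protein of mucosal defence, differed with the runs. It had 39.8 UMIs per 10000 in mitotic cells, 19.4 in other cells (log2 ratio 1.04, interval 0.97 to 1.10) and a lower level in replicating cells (ratio 0.50, interval 0.41 to 0.58), and 70.4% of mitotic cells had a UMI. With the other cells weighted to the runs of the mitotic cells its ratio fell to 0.48, under 1.5-fold. The other genes of the bottom enterocyte list did not follow it. The lectins Reg3b, Reg1 and Reg3g had log2 ratios over other cells of -1.68, -1.44 and -1.58, and Gsdmc4, of the gasdermin C cluster, had -0.14 (interval -0.57 to 0.28). The summed list had a ratio of 0.40, the median over its 6 measured genes was -0.79, and with run weights the sum had 0.08.

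Goblet transcripts were concentrated in few mitotic cells. Goblet genes had a UMI in 34.8% of mitotic cells at 900 UMIs (28.9 to 41.1%), above 27.2% of other cells (25.1 to 29.4%) and 26.0% of replicating cells (20.7 to 31.9%). The share was 40% in the 20 immune-rich cells (19.1 to 64.0%), so that a single UMI cannot be read as expression. A total of 12 mitotic cells, 6 WT and 6 ROBO, had at least 10 goblet UMIs, and the 3 highest, with 807, 328 and 225 UMIs, held 64.8% of the 2098 goblet UMIs. The highest, a WT cell of 8784 UMIs at rank 119, carried 254 UMIs of the trefoil factor Tff3, 201 of Agr2, a disulphide isomerase of mucus secretion, 170 of Spink4 and 56 of the mucin Muc2 beside 42 M gene UMIs. Zg16, a granule lectin of mature goblet cells, was at 0 in that cell and had a ratio of -3.94 over all mitotic cells. Agr2 stood at 0.84 over all mitotic cells, but at -2.92 without the 15 mitotic cells that had at least 10 goblet or immune UMIs, where Muc2 had -3.35 and Tff3 -2.90. The other cells kept their goblet-rich cells here, so such low ratios were set by the filter. They show where the goblet UMIs of the mitotic cells lay and are no measure of goblet expression in the cells that remain. The summed goblet list was lower in mitotic cells in 12 of 13 runs. Paneth genes were lower than in other cells, with 3.21 against 22.4 UMIs per 10000 (log2 ratio -2.80), enteroendocrine genes totalled 24 UMIs, and 0 tuft UMIs were found, which allows a share of up to 1.20% of mitotic cells with a tuft UMI. At 900 UMIs 0.760% of other cells had a tuft UMI, which is under this limit, so no difference is shown.

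A total of 3 mitotic cells were rich in immune transcripts and had 0 or 1 UMI of the epithelial marker Epcam. They held 331 UMIs of the list (WT), 85 (ROBO) and 14 (ROBO), which is 98.6% of the 436 immune UMIs of all mitotic cells. The first had 128 UMIs of granzyme Gzma, 99 of Gzmb and 68 of the chemokine Ccl5, and the third had 10 of the leukocyte antigen Ptprc and no granzyme UMI. The M score thus took in cells with markers of another lineage, and values that rest on them are also given below without them. Fibroblast genes had 5 UMIs in all, all of Vim, with Dcn, Col3a1 and Sparc at 0. Scrublet called 1 of the 250 cells, from ROBO, a doublet.

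**Figure D4:**
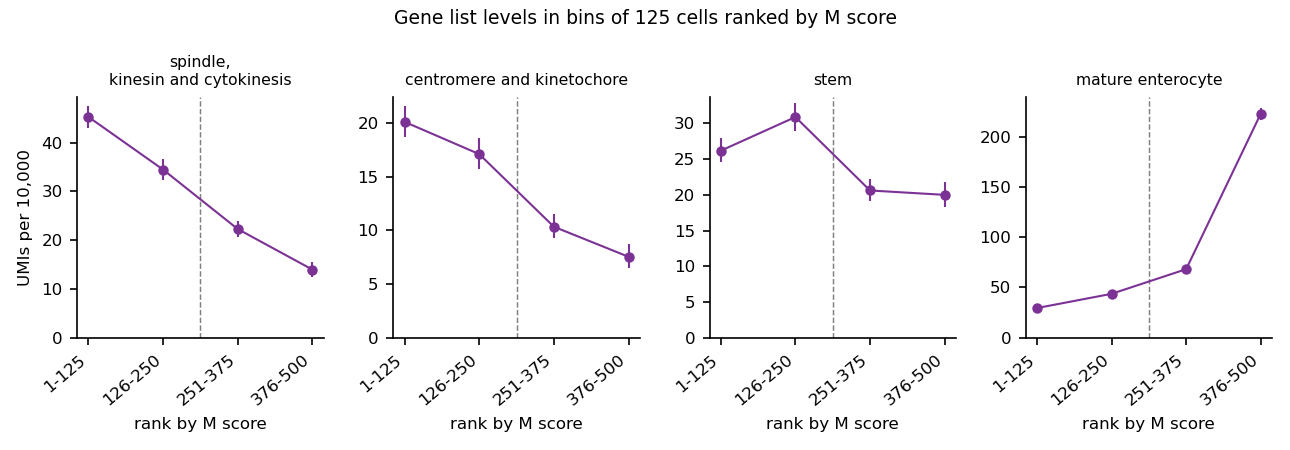
Summed UMIs per 10000 of 4 gene lists in bins of 125 cells ranked by M score among cells whose M score is at least their S score, with exact 95% Poisson intervals for counting error; the dashed line marks the limit of the mitotic group at rank 250. The spindle list goes from 45.3 to 14.0 and the mature enterocyte list from 29.3 to 222.9 across the 4 bins, with intermediate levels on both sides of the dashed line.

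The decline from the highest to lower M scores was gradual over the pooled runs. In ranks 1 to 125, 126 to 250, 251 to 375 and 376 to 500, the spindle and cytokinesis list had 45.3, 34.5, 22.3 and 14.0 UMIs per 10000, and the kinetochore list 20.1, 17.1, 10.3 and 7.53. The mature enterocyte list had 29.3, 43.5, 68.0 and 222.9 in the same bins. The stem list had 26.2, 30.9, 20.6 and 20.0, and so was not highest in the cells with the highest M scores. The median depth of the bins was 2470, 1922, 2096 and 1642 UMIs per cell.

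Within the mitotic cells, which all had to pass the same M score limit, ROBO and WT differed little over the division genes. These genes are transcribed with the score genes, so their near-equal levels were set in part by the choice of cells and are a description. Of 1311 genes with at least 100 UMIs in mitotic cells, 3.66% were past 1.5-fold higher in ROBO and 5.87% past 1.5-fold lower, with a median log2 ratio of -0.03. Without WT run 5, which held 58 of the 128 WT mitotic cells, 21 genes were higher and 23 lower by this fold, in place of 48 and 77, with fewer genes at the minimum. In the 7 mitotic lists and the tubulins, 2 of 50 measured genes were past 1.5-fold higher in ROBO (4%) and 0 lower, a share near the 3.66% of all genes. The log2 ratios of the list sums were 0.04 for the spindle list (interval -0.07 to 0.15), 0.00 for the kinases (-0.15 to 0.16), 0.01 for the kinetochore list (-0.15 to 0.17), -0.01 for the checkpoint list (-0.16 to 0.14) and -0.03 for tubulins (-0.15 to 0.09). The list of cyclins and CDC25 stood at 0.26 (0.09 to 0.44), with Ccna2 at 154 UMIs in ROBO and 125 in WT (0.56, interval 0.21 to 0.91). The 2 chromatin genes past 1.5-fold were Dek (96 in ROBO and 70 in WT, 0.72) and Hmgn2 (71 and 54, 0.65), which had 0.36 and -0.20 without WT run 5. Tubulin gene Tuba1c had 106 UMIs in ROBO and 187 in WT (-0.56, interval -0.92 to -0.21).

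The summed replication list differed by less than 1.5-fold between ROBO and WT mitotic cells, and the runs overlapped. Of its 4 genes with at least 100 UMIs, 1 was past 1.5-fold higher in ROBO and 0 lower, beside 3.66% and 5.87% of all genes. The replication list outside the S score had 35.4 UMIs per 10000 in ROBO and 27.99 in WT (log2 ratio 0.34, interval 0.21 to 0.46), and 0.19 with each cell given the same weight. By run it lay between 26.7 and 35.7 in WT (median 27.7) and between 29.4 and 39.4 in ROBO (median 34.6), and leaving out 1 run at a time gave log2 ratios of 0.30 to 0.38. The S score genes, which entered the rule, had 14.8 and 12.5 (0.24, and 0.08 with each cell given the same weight). In the other cells the replication list was at -0.10 (-0.16 to -0.04). Set against the other cells of the same genotype, the replication list had a log2 ratio of 0.67 in ROBO and 0.24 in WT mitotic cells. The ratio in mitotic cells came from many genes of few UMIs each, such as Rfc1 (24 UMIs in ROBO and 9 in WT) and Rpa1 (32 and 18). The stem list stood at 0.11 (-0.02 to 0.25) and the Wnt target list at 0.06 (-0.12 to 0.23), with Lgr5 at 31 UMIs in ROBO and 32 in WT and Axin2 at 109 and 130. Mouse Rspo3 had 3 UMIs in ROBO and 1 in WT mitotic cells and Ptprk 30 and 47; these do not check the genotype, since the transgene is human. As checks, the ribosomal RNA repeat Rn45s had 112 and 166 UMIs, and the Y-linked Ddx3y 19 and 20 with Xist at 0 in both.

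**Figure D5:**
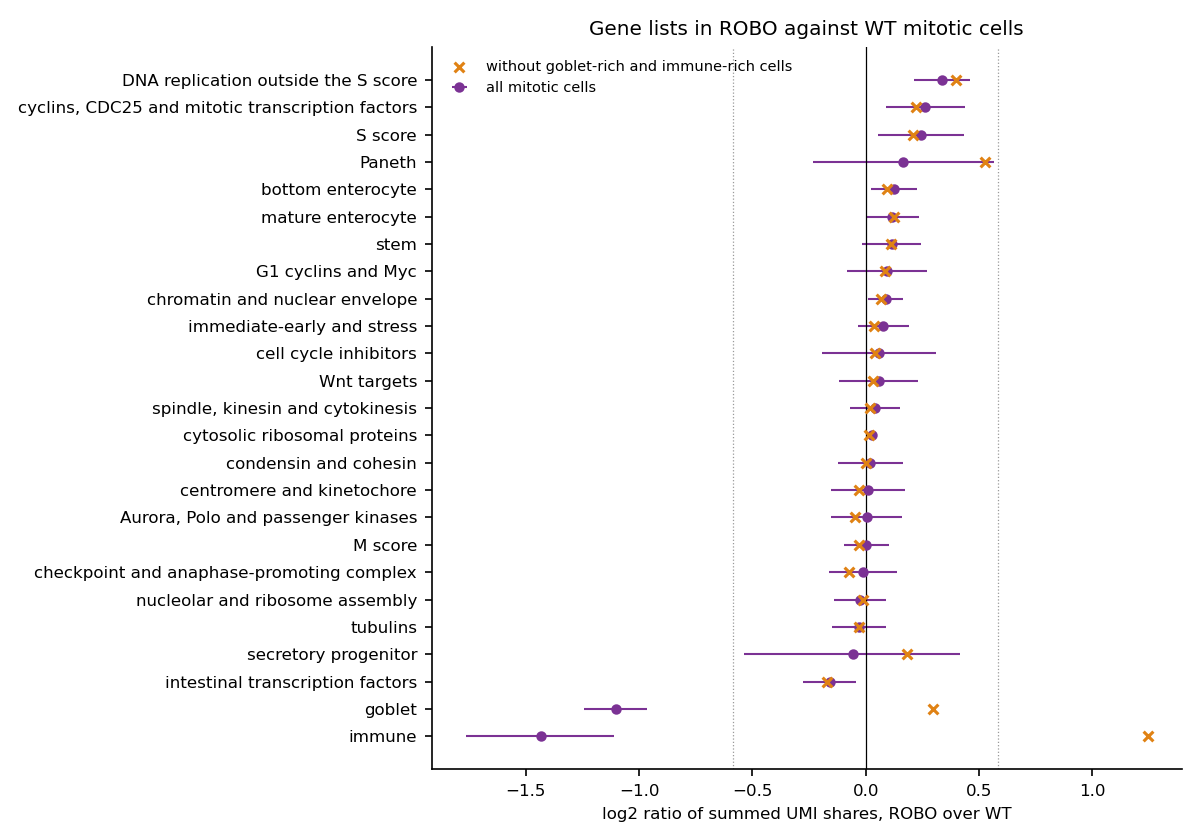
Log2 ratio ROBO over WT of summed UMI shares within the 250 mitotic cells, for gene lists with at least 30 UMIs (circles, with conditional exact 95% intervals for counting error), and the same after removing 15 cells with at least 10 goblet or immune UMIs (crosses); dotted lines mark 1.5-fold. Division lists lie near 0, in cells that all passed the same M score limit, and the goblet and immune lists, at -1.10 and -1.43, move to 0.30 and 1.25 without those cells. The minimum of 30 UMIs applies to the circles only, and the immune cross rests on very few UMIs.

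The gene list values most apart between the genotypes rested on a few cells. The goblet list had 41.5 UMIs per 10000 in WT and 19.3 in ROBO mitotic cells (log2 ratio -1.10, interval -1.24 to -0.97), and the immune list 9.14 and 3.38 (-1.43). Without the 15 cells that had at least 10 UMIs of either list (7 WT and 8 ROBO) these became 0.30 and 1.25, and without WT run 5 the goblet list had 0.73 and without WT run 2 the immune list 6.81. A single WT cell held 331 of the 333 WT immune UMIs. The immune values of 1.25 and 6.81 thus rest on very few WT UMIs and give no direction. Of the genes that ranked lowest in ROBO, Gzmb (4 UMIs in ROBO and 99 in WT) and Gzma (30 and 129) came from 1 and 2 WT cells. Spink4 (72 and 278), Agr2 (102 and 325) and Guca2a, the gut hormone guanylin (25 and 83), had 61.2%, 61.8% and 81.9% of their WT UMIs in 1 cell. Without the 15 cells the ROBO and WT counts were 27 and 29 for Spink4, 11 and 18 for Agr2, and 13 and 10 for Guca2a.

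Other genes were spread over many cells, but several rested on 1 run. Mt2, a metallothionein that binds zinc, had 243 UMIs in ROBO and 651 in WT (log2 ratio -1.16, interval -1.38 to -0.95), in 66 and 79 cells, and -1.27 without the 15 cells. Without WT run 5 the ratio of Mt2 turned to 0.44. Sfn (14-3-3 sigma, an inhibitor of CDK1 activation) had 38 and 96 UMIs (-1.08, interval -1.66 to -0.52) in 32 and 59 cells, and Aes, a Groucho family corepressor, 61 and 151 (-1.05). Without WT run 5 these had -0.50 and -0.26. The ribosomal protein pseudogene Rps19.ps3 had 20 and 97 (-2.02, and -0.65 without WT run 5), and its reads may come in part from Rps19, whose sequence it shares. In the other cells, where 1.28% of 6578 genes were past 1.5-fold higher in ROBO and 1.67% past 1.5-fold lower, the log2 ratios of Mt2, Sfn, Aes and Rps19.ps3 were -0.57, -0.60, -0.37 and -0.85, in the same direction. The genes highest in ROBO were Hcfc1, a chromatin cofactor (63 UMIs in ROBO and 38 in WT, log2 ratio 0.99, interval 0.39 to 1.61), Lpcat3, a phospholipid enzyme (76 and 46, 0.98), Apoa1 (140 and 87, 0.95), the splicing factor Sf3b6 (90 and 57, 0.92) and the methyl-DNA binding gene Mbd2 (76 and 49, 0.89). For Apoa1 a single ROBO cell held 27.9% of its ROBO UMIs, and its ratio was -0.01 without WT run 5. Leaving out 1 run at a time, Hcfc1 kept a ratio of at least 0.60, Lpcat3 of 0.55, Sf3b6 of 0.74 and Mbd2 of 0.74. In the other cells Hcfc1 was at -0.20 and Lpcat3 at 0.04. Of the rest of the 10 highest, Mal2, Maea, Pcbd1, Plagl2 and Tardbp had ratios of 0.80 to 0.89, and no gene of the 20 belongs to the mitotic lists.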

How the data were processed

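Single cells were profiled with a droplet 3' assay that counts UMIs. The authors preprocessed the reads in BaseSpace and deposited raw counts of UMIs per gene and cell in 1 matrix per genotype, and their processing notes name the builds mm10 and GRCm38. The aligner, annotation and cell calling are not given in the sources used here. Both matrices were joined, and UMIs were summed over mitotic, other and replicating cells and given per 10000. Mitotic cells, gene lists and named genes were chosen with earlier results of these data known.

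A rise in UMI total from one column to the next marked a new run of columns, found after seeing the data. For run weights, other cells were summed by run in proportion to the UMIs of the mitotic cells.

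Intervals at the 95% level are exact Poisson for levels, exact binomial (Clopper-Pearson) for shares, Newcombe for a difference of shares and conditional exact for ratios, and a count of 0 allows up to 3 counts. Genes needed at least 100 UMIs over the cells compared. Shares of cells with a UMI were compared after thinning each cell to 900 UMIs, except the share of cells with no S gene UMI. Genes were named if they were in a score, among the 4 of a list with most UMIs in mitotic cells, past 1.5-fold with at least 100 UMIs in a list, or among the 15 highest and 10 lowest of the first comparison or the 10 in each direction between genotypes. The genes Cdc25a, Anapc11, Anapc2, Lmna, Smc1a, Smc3, Ncaph2, Ncapg2, Igfbp4 and Ascl2, the replication genes Rpa1 and Rfc1, and the marker genes given for single cells were chosen after their values were seen. Doublets were called with Scrublet at an expected rate of 5%, which marked 2 WT and 4 ROBO cells. These cells were kept. Promoters came from RefSeq (GRCm38.p6). Interval and ranking steps were tested on simulated data. Python 3.11.15 was used with numpy 2.4.6, scipy 1.17.1, pandas 2.3.3, scikit-learn 1.9.0, Scanpy 1.11.5 and matplotlib 3.10.9. The alternatives varied the depth minimum, the number of cells, the scores, the weighting, the denominator and the UMI minimum per gene.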

Additional observations from a re-analysis of the deposited data

How the results depend on the processing

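No paired analysis was possible because cell names carry no sample or replicate number, so each genotype is 1 pooled sample. In place of replicates, the 5 WT and 8 ROBO column runs were left out in turn, an alternative chosen after seeing the data. The difference in share then lay between -3.24 and 2.50 points, the lists past 1.5-fold numbered 13 to 15 against other cells and 3 to 4 between genotypes, the genes 1919 to 2158 and 44 to 142, and the share with a stem UMI was 77.0% to 79.2%. The ROBO over WT ratio of the goblet list lay between -1.81 and 0.73 (without WT run 5), and that of the immune list between -3.90 and 6.81 (without WT run 2). The difference in the share of mitotic cells (ROBO minus WT) stayed within its counting interval under 8 of 9 other alternatives. With scores taken after thinning to 900 UMIs it was -3.35 points (-6.30 to -0.39), where 111 cells were tied at the last score and file order, WT first, filled the remaining places. Counting all cells tied there gave -0.145 (-3.25 to 2.97). Against the replicating cells instead of all other cells, the mature enterocyte ratio turned to 0.48 and the goblet ratio to 1.62. Genes past 1.5-fold against other cells numbered 2089, and 3410 or 799 with a minimum of 30 or 300 UMIs per gene, where the share of them that was higher went from 50.9% to 51.3% or 40.8%. Between genotypes the number was 125, and 966 or 24, with 38.4% higher in the main count, 50.2% and 29.2%. Gene lists past 1.5-fold between genotypes numbered 3, and 1 with each cell given the same weight. An alternative chosen after seeing the data, without the 15 cells rich in goblet or immune UMIs, also left 1 and turned the ROBO over WT ratio of the goblet list to 0.30 and of the immune list to 1.25. The immune ratio was 1.27 without cells with 3 or more immune or fibroblast UMIs. Without the immune-rich cells or without WT run 2, the immune ratio rests on very few WT UMIs and gives no direction. The enteroendocrine ratio, from 24 UMIs, turned to 1.74 with 350 cells and 2.20 with a minimum of 1500 UMIs. The share of mitotic cells with a stem UMI, 78.0%, was 95.6% without thinning and 42.4% at 3 or more UMIs. Of the mitotic cells, 22 rest on under 5 M gene UMIs, and of the 250 cells 187 were chosen again after thinning.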
